A study of Mus musculus with 32 samples.

Results

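Lin28a, Lin28b, Hmga1, Hmga2, Igf2bp1, Igf2bp2 and Igf2bp3 were followed in single cells of the mouse dorsal telencephalon, the embryonic tissue that gives rise to the cerebral cortex. These 7 genes were taken by symbol from the 32285 genes listed for each library. Each library came from 1 C57BL/6J embryo, either WT or Chd8+/-, which has 1 intact copy of the chromatin remodeller gene Chd8 and is called het below. Embryos were sampled at E12.5, E14.5, E16.0 and, last, E17.5. Each genotype had 4 libraries at a stage, named M1 and M2 (males) and F1 and F2 (females). A WT and a het embryo that share a name and stage were matched for litter and sex, which gave 16 pairs in 32 libraries. Per the labels, medial tissue was removed and each embryo was processed on its own. The sources used here do not say how the Chd8 allele was made, and the labels name no other treatment. Levels are given as CPM, the number of unique molecular identifiers (UMIs) of a gene scaled to a total of 1000000 UMIs in the same library and cell population.

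Heterochronic genes set the timing of development. The RNA-binding proteins LIN28A and LIN28B block the maturation of let-7 microRNAs, and let-7 in turn represses the messenger RNAs of Lin28a, Lin28b, Hmga2 and the Igf2bp genes. HMGA1 and HMGA2 are small chromatin proteins that bind AT-rich DNA, and Hmga2 is known for sustaining the self-renewal of fetal neural stem cells. IGF2BP1, IGF2BP2 and IGF2BP3 bind messenger RNAs, among them that of Igf2, and steer their stability, transport and translation in embryonic tissue.

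All 7 members carry in the 3′ UTR of their annotated transcript at least 1 copy of CTACCTC, the DNA letters that pair with the let-7 seed. The seed, bases 2 to 8 from the 5′ end, is in capitals in the mature microRNAs below, which come from RefSeq (GRCm38.p6). They are let-7a (chr13:48538239-48538260, minus strand), let-7b (chr15:85707325-85707346, plus strand), let-7c, one of whose copies (chr16:77599672-77599693, plus strand) lies inside Mir99ahg, and, with another seed, miR-125b (chr16:77646279-77646300, plus strand), also inside Mir99ahg. The seed GAGGUAG was common to all 9 mouse let-7 and miR-98 names found.
mmu-let-7a-5p: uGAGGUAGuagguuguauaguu
mmu-let-7b-5p: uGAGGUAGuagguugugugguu
mmu-let-7c-5p: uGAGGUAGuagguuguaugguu
mmu-miR-125b-5p: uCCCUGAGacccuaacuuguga

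One 3′ UTR match per member is shown next, 5′ to 3′ on the strand of the gene, with CTACCTC in capitals, because it is the sequence feature that the members have in common. The transcripts and positions are those of GENCODE M21 (GRCm38). The stretches lie at chr4:134005182-134005211 (Lin28a, minus strand), chr10:45381015-45381044 (Lin28b, minus), chr17:27563277-27563306 (Hmga1, plus), chr10:120364217-120364246 (Hmga2, minus), chr11:95961771-95961800 (Igf2bp1, minus), chr16:22059466-22059495 (Igf2bp2, minus) and chr6:49086780-49086809 (Igf2bp3, minus).
Lin28a: gcacagcctgttgaaCTACCTCatttttgc
Lin28b: acccgggcgggaagtCTACCTCatgcaagc
Hmga1: tcctctgttcacaaaCTACCTCtggacggt
Hmga2: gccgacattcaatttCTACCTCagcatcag
Igf2bp1: gctgtgcgaagtaaaCTACCTCaaggtgtg
Igf2bp2: acacacaaataaaagCTACCTCaggtgttt
Igf2bp3: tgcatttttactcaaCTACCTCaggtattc

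CTACCTC, searched on the transcribed strand alone, occurred 4 times each in the 3′ UTRs of Lin28b, Hmga2 and Igf2bp1, 2 times in Lin28a, and once each in Hmga1, Igf2bp2 and Igf2bp3. Of 21037 genes with an annotated 3′ UTR, 9.02% held at least 1 copy and 0.152% held 3 or more. Among genes with 3′ UTRs of like length, at least 1 copy was found in 24.2% for Lin28b, 15.5% for Hmga2 and 33.6% for Igf2bp1. The miR-125 match CTCAGGG was found once each in Lin28a, Lin28b and Igf2bp3, against 13.1% of all genes and 24.6%, 32% and 19.9% of genes with 3′ UTRs of like length. MicroRNAs were not measured in these libraries, and a match of letters is a description of the transcript, not a measured site of repression.

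The genes lie on GRCm38 chromosomes 4 (Lin28a, 134003330 to 134018841), 10 (Lin28b, 45376620 to 45486395, and Hmga2, 120361275 to 120476469), 17 (Hmga1, 27556497 to 27563674), 11 (Igf2bp1, 95957163 to 96005940), 16 (Igf2bp2, 22059009 to 22163299) and 6 (Igf2bp3, 49085223 to 49214957). Genes on the opposite strand overlap Lin28a (Gm13061), Hmga1 (Gm49774 and AI413582), Hmga2 (1700006J14Rik and 9230105E05Rik), Igf2bp1 (Gm29202) and Igf2bp3 (Malsu1 and Gm18010). Whether counting used strand is not given in the sources used here, so reads of these partners cannot be told apart from those of the members.

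The libraries held 145082 barcodes and 1075297873 UMIs, between 14710694 and 66499864 per library, and 138226 cells were retained. Cells with at least 1 UMI of Sox2 (a gene of neural progenitors, 53919 cells), Eomes (intermediate progenitors, 31727) or Neurod6 (excitatory neurons, 85006) formed 3 populations, which overlap. Cells with only 1 of the 3 genes had the other markers of their type. Fabp7 averaged 6095 CPM in Sox2-only cells and 247 in Neurod6-only cells, Neurog2 averaged 1909 CPM in Eomes-only cells, and Neurod2 averaged 950 CPM in Neurod6-only cells and 12.2 in Sox2-only cells. Chd8 in het libraries averaged between 72.6% and 90.9% of the WT mean, and the genotypes did not overlap at 2 of the 4 stages. On the first principal component within their stage, WT M1, het M1 and het F1 stood apart at E17.5 and het M1, F1 and F2 at E12.5. At E14.5 and E16.0 this component set all males apart from all females and held 64.4% and 49% of the variance. The sample descriptions start with a code of unknown meaning that also differed between males and females at these stages, so sex and code cannot be told apart there. Any pair of libraries shared between 7 and 66 barcodes, with a median of 27.

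Between E12.5 and E17.5 the level of Lin28b, Hmga2, Igf2bp1, Igf2bp2 and Igf2bp3 fell in all 3 populations, and that of Hmga1 did not pass the test in any. The falls were of different size. In WT Sox2-detected cells the mean at E17.5 was 2.52% of that at E12.5 for Hmga2, 8.68% for Lin28b, 16.9% for Igf2bp2, 39.3% for Igf2bp1 and 49.5% for Igf2bp3. The test was edgeR's quasi-likelihood test on UMIs summed per library, with Benjamini-Hochberg adjustment over all 13807 genes tested in this population. Of the 7 members 6 were tested, since Lin28a was below the count minimum, and the 5 named above were lower, where 27.3% of all genes were called lower. Lin28b reached that minimum through its E12.5 libraries alone in Sox2- and Eomes-detected cells, so its place in the count is no support for it. In such sums, fewer cells of a type and less RNA per cell cannot be told apart. No code that starts a sample description was shared between stages, so stage and code cannot be told apart in any comparison of stages.

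**Figure D1:**
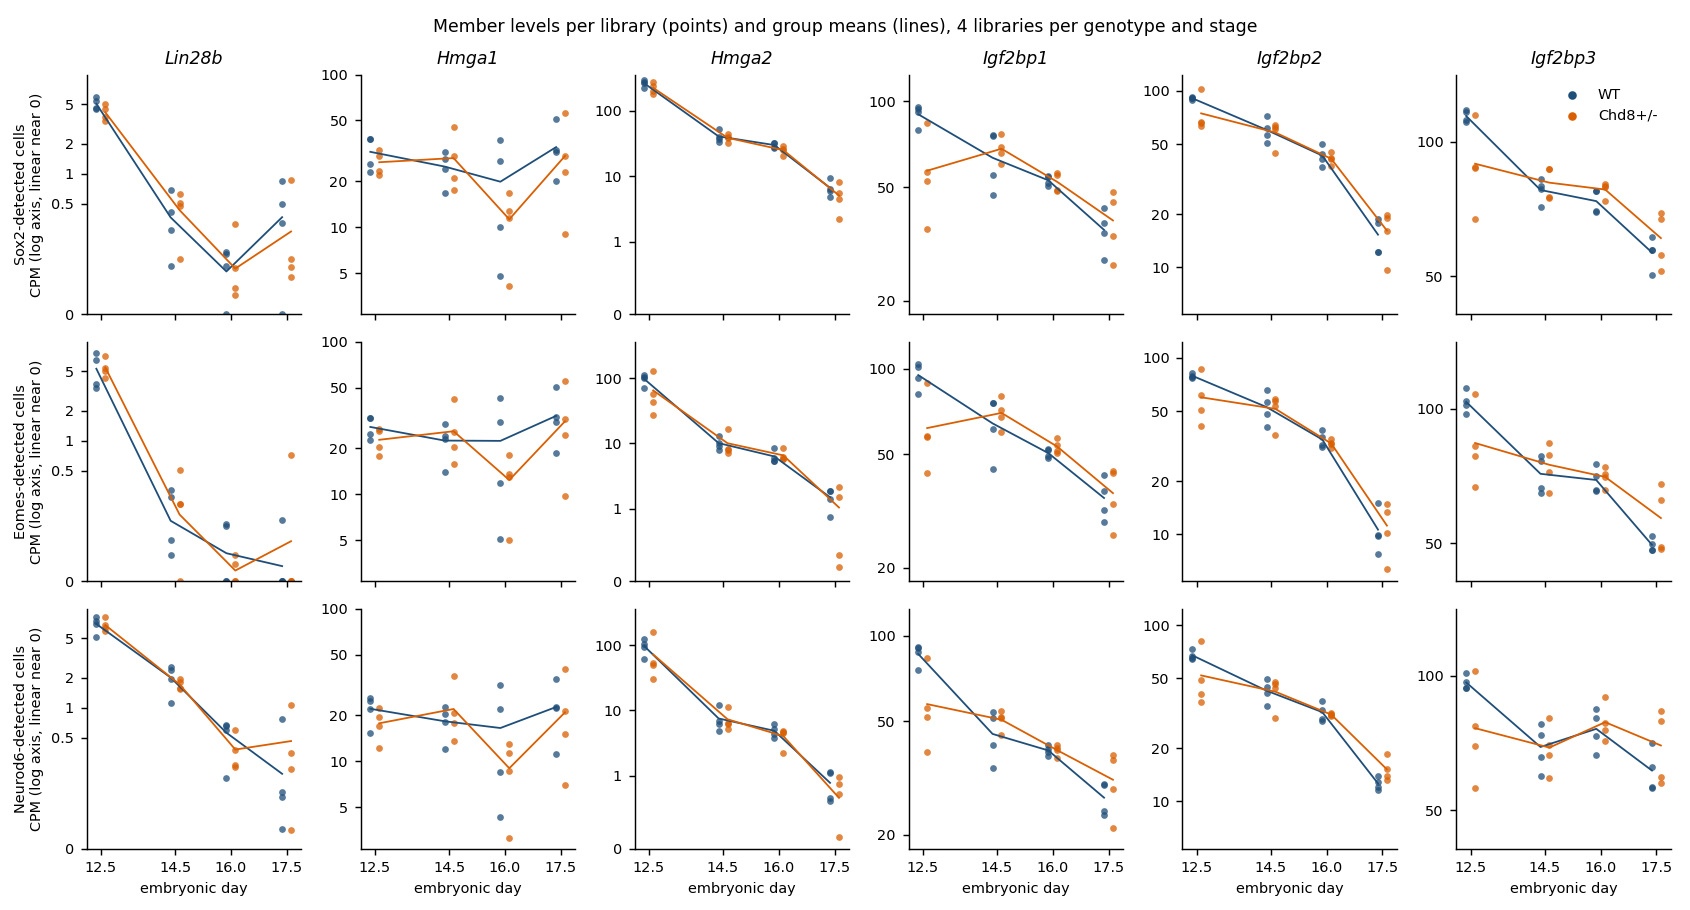
CPM of 6 members (columns) in Sox2-, Eomes- and Neurod6-detected cells (rows) against embryonic day, on a log axis that is linear near 0. Points are libraries of WT (blue) and Chd8+/- (orange) embryos and lines join group means of 4 libraries. Hmga2 descends at every stage, Lin28b descends mostly before E14.5 in Sox2- and Eomes-detected cells, and Hmga1 scatters widely with no common slope.

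Lin28b, which encodes the let-7 inhibitor, was at 4.45, 4.58, 5.36 and 5.86 CPM in the WT libraries M1, M2, F1 and F2 at E12.5 in Sox2-detected cells. At E17.5 the same order gave 0.415, 0.841, 0.502 and 0 CPM, from 2, 5, 2 and 0 UMIs. All 4 early libraries were above all 4 late ones. The log2 change was -3.60 ± 0.405 (SE, n = 4 per stage, adjusted p = 9.61e-09), and with no count minimum it was -3.65 (adjusted p = 1.2e-09). Pooled over libraries, 854 UMIs at E12.5 and 9 at E17.5 gave a ratio of 11, with an exact 95% interval of 5.79 to 24.2 that covers counting error only.

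Hmga2 was at 221, 272, 264 and 301 CPM in WT M1, M2, F1 and F2 at E12.5 and at 6.02, 4.88, 9.29 and 6.48 CPM at E17.5 in Sox2-detected cells. The lowest early library was thus above the highest late one by a wide margin. The means were 264 ± 33.1 and 6.67 ± 1.87 CPM (SD, n = 4), and the log2 change was -5.50 ± 0.23 (SE, adjusted p = 5.68e-18).

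Igf2bp2 was at 91.1, 92.1, 91.5 and 89.1 CPM in WT Sox2-detected cells at E12.5 and at 12.2, 18.8, 12.3 and 17.9 CPM at E17.5. The early WT libraries differed little (SD of 1.28 CPM) and all lay above the late ones. The log2 change was -2.72 ± 0.171 (SE, adjusted p = 5.7e-14).

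Igf2bp1, which is known for binding beta-actin and Igf2 messenger RNA, was at 95.3, 79.3, 91.7 and 94.3 CPM at E12.5 and at 42.1, 27.8, 34.4 and 37.4 CPM at E17.5. Its log2 change was -1.52 ± 0.166 (SE, adjusted p = 5.57e-09). Igf2bp3, the third paralog of that family, was at 118, 112, 116 and 111 CPM at E12.5 and at 61.2, 57.2, 57.3 and 50.4 CPM at E17.5. Neither gene's stages overlapped. The log2 change of Igf2bp3 was -1.18 ± 0.0909 (SE, adjusted p = 4.93e-12), the smallest of the 5 falls.

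The share of Sox2-detected cells with at least 1 UMI fell too. After each cell was thinned to 2000 UMIs, Hmga2 was seen in 37.4% ± 3.93 of WT cells at E12.5 and 1.12% ± 0.259 at E17.5 (SD, n = 4), and in 79.6% and 3.92% without thinning. Igf2bp2 was seen in 16.4% and 3.20% of thinned cells and Igf2bp3 in 20.1% and 11.8%. At E17.5, 32 of 2700 cells were too shallow to thin. Erythroid cells, a lineage outside the neural tissue in which own transcripts and free RNA cannot be told apart, gave at E12.5 a thinned share of 3.28% for Hmga2, 1.49% for Igf2bp2 and 1.20% for Igf2bp3. At E17.5 the thinned share in 46 erythroid cells was 0.492% for Hmga2, 0.254% for Igf2bp2 and 0.662% for Igf2bp3, from 2, 1 and 4 cells with a UMI before thinning.

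Summed marker levels in the Sox2-detected population moved with stage. The summed level of 10 radial glia markers, all detected, ranged from 3517 to 4171 CPM in WT libraries at E12.5 and from 8528 to 9914 CPM at E17.5. That of 5 oligodendrocyte lineage markers, also all detected, ranged from 1.32 to 1.70 CPM and from 204 to 487 CPM. Of the 10 radial glia markers, Fabp7 averaged 892 CPM at E12.5 and 6026 CPM at E17.5 in WT. Slc1a3 averaged 85.3 and 341 CPM, and Sox9 averaged 176 and 152 CPM. The first sum thus mostly follows Fabp7, and whether the make-up of cells changed was not tested. The same 5 members were lower when cells with markers of another type were left out, when the median UMIs per cell entered the fit, and without the 3 libraries that stood apart at E17.5. The share of all genes lower in these fits is not given, so this count is no support on its own. As above, Lin28b is no support for it either.

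Of the Eomes-detected cells, which hold intermediate progenitors, 75.2% also had Neurod6 UMIs, and their mean level of Neurod6 was 863 CPM beside 561 CPM of Eomes. In this population Hmga2 was at 70.1, 113, 102 and 102 CPM in WT libraries at E12.5 and at 0.893, 1.86, 1.39 and 1.86 CPM at E17.5. The log2 change was -6.10 ± 0.421 (SE, adjusted p = 4.53e-13). Lin28b came to 242 UMIs at E12.5 and 1 UMI at E17.5, a ratio of 95.4 with an exact interval of 17 to 3782, so the size of that fall is poorly set. Igf2bp2 fell by 3.02 on the log2 scale, Igf2bp1 by 1.56 and Igf2bp3 by 1.19, and no early WT library of these genes overlapped a late one. Of all 13123 genes tested, 24.3% were called lower.

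In Neurod6-detected cells, which hold the neurons, Lin28b was at 6.96, 5.11, 7.53 and 8.29 CPM at E12.5 and at 0.234, 0.254, 0.774 and 0.0884 CPM at E17.5 in WT. The log2 change was -4.35 ± 0.389 (SE, adjusted p = 1.7e-10), where 28% of 14586 genes were called lower. Hmga2 went from 62.0, 126, 103 and 94.5 CPM to 1.11, 0.699, 0.655 and 1.15 CPM, a log2 change of -6.84 ± 0.473. Igf2bp1 fell by 1.77 and Igf2bp2 by 2.50 on the log2 scale. Igf2bp3 fell least, from 102, 93.8, 96.9 and 94.1 CPM to 70.6, 56.0, 62.5 and 56.4 CPM, a log2 change of -0.74 ± 0.113 (SE, adjusted p = 2.11e-06). Of the 5422 WT cells of this population at E12.5, 1555 had UMIs of Neurod6 alone among the 3 population genes. The mean thinned share of cells with Hmga2 was 4.28% in these and 11.4% in all 5422. In Neurod6-only cells of both genotypes the mean of Igf2bp3 was not lower at E17.5, as given below, so its fall here does not hold for those cells.

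The timing of the fall differed in shape from member to member. From E12.5 to E14.5 all 5 members were lower in each population by edgeR's quasi-likelihood test, where 18% (Sox2-detected), 14.2% (Eomes-detected) and 17.8% (Neurod6-detected) of all genes were. As above, Lin28b in Sox2- and Eomes-detected cells is no support for this count, which leaves Hmga2 and Igf2bp1 to Igf2bp3. In WT Sox2-detected cells Lin28b was then at 0.463, 0.383, 0.221 and 0.686 CPM, a log2 change of -3.61 ± 0.334 (SE, adjusted p = 9.87e-10), and with no count minimum it was -3.63 (adjusted p = 5.56e-11). In cells with UMIs of only 1 population gene, 3 members were lower in Eomes-only cells (Hmga2, Igf2bp2 and Igf2bp3) and 3 in Neurod6-only cells (Lin28b, Hmga2 and Igf2bp1), where 2.23% and 12.3% of all genes were. Hmga2 was at 33.2, 39.8, 53.0 and 37.6 CPM at E14.5, and this step made up 51.2% of its log2 fall. For Igf2bp3 the step was 57.5% of the fall, for Igf2bp1 42.3% and for Igf2bp2 26.8%.

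Between E14.5 and E16.0 fewer members moved, and few genes did: 4.2%, 2.61% and 5.36% of all genes were called lower in Sox2-, Eomes- and Neurod6-detected cells. Igf2bp2 was lower in all 3 populations (log2 changes of -0.60, -0.73 and -0.55, adjusted p = 0.0111, 0.0103 and 0.0194). Hmga2 was also lower in Sox2-detected cells (-0.56, adjusted p = 0.0449), Igf2bp1 in Eomes-detected cells (-0.47, adjusted p = 0.0431) and Lin28b in Neurod6-detected cells (-1.95 ± 0.358, adjusted p = 0.000937). Most of these calls depended on single libraries, and that of Lin28b was lost in 0 of 32 fits. When 1 library was left out at a time, Hmga2 lost its call in 19 of 32 fits and Igf2bp1 in 12 of 32, and Igf2bp2 lost its call without WT M2 of E14.5 in all 3 populations, without WT M2 of E16.0 in Sox2- and Neurod6-detected cells, and without WT M1 of E14.5 or E16.0 in Neurod6-detected cells. The counts ranged from 0 to 2 in Sox2- and Eomes-detected cells and from 1 to 3 in Neurod6-detected cells. The share of all genes called lower also moved with the library left out.

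From E16.0 to E17.5 Hmga2 and Igf2bp2 fell further. In WT Sox2-detected cells Hmga2 went from 32.3, 28.4, 27.0 and 32.7 CPM to the E17.5 values given above, a log2 change of -2.12 ± 0.229 (SE, adjusted p = 2.53e-07). Igf2bp2 went from 40.9, 37.1, 43.7 and 50.3 CPM, a log2 change of -1.39 ± 0.171 (SE, adjusted p = 1.74e-06), and 51.2% of its fall lay in this step. Igf2bp1 (-0.50, adjusted p = 0.0307) and Igf2bp3 (-0.30, adjusted p = 0.0192) were lower as well, and 9.79% of all genes were. The same 4 members were lower in Eomes-detected cells, where 4.27% of genes were, and Hmga2, Igf2bp1 and Igf2bp2 in Neurod6-detected cells, where 3% were. The call of Igf2bp1 in Neurod6-detected cells was lost in 21 of 32 fits that left out 1 library, and that in Eomes-detected cells in 7. In Neurod6-detected cells Igf2bp2 alone passed with at least 2 Neurod6 UMIs, where 2.29% of all genes were lower. In Eomes-only and in Neurod6-only cells Igf2bp2 alone passed too, where 0.476% and 2.26% of all genes were lower, and the Hmga2 change was 0.36 in Eomes-only cells. A change of Lin28b was not detectable at this depth in any of the 3.

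**Figure D2:**
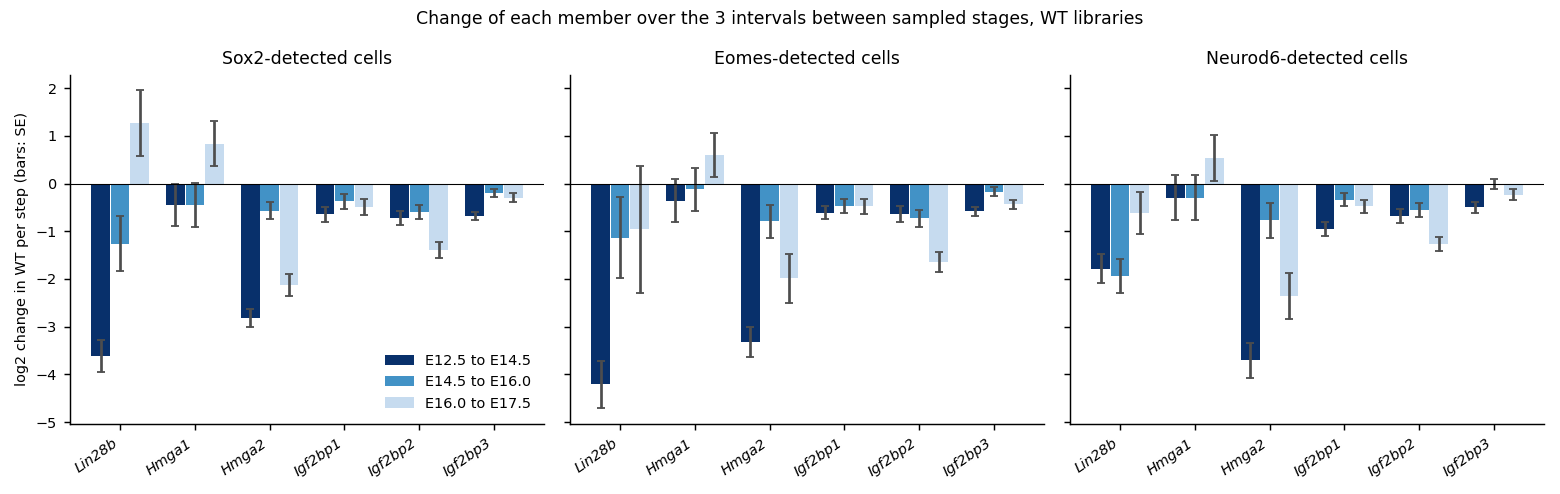
Log2 change of 6 members over the 3 intervals between sampled stages in WT libraries, as bars with their SE (n = 4 libraries per stage), in the 3 cell populations. The first interval holds the largest bars for Lin28b in Sox2- and Eomes-detected cells and for Hmga2 in all 3, and the last interval holds the largest bar for Igf2bp2 in each.

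In WT Neurod6-detected cells Lin28b was at 2.57, 2.42, 1.13 and 1.96 CPM at E14.5 and at 0.672, 0.666, 0.598 and 0.319 CPM at E16.0. Its log2 change from E12.5 to E14.5 there was -1.78 ± 0.310 (SE, adjusted p = 3.92e-05), followed by the second fall given above. Whether these steps differ from those in the other populations was not tested. Igf2bp3 in the same cells was at 73.8, 77.9, 65.8 and 59.7 CPM at E14.5 and at 80.3, 84.3, 66.6 and 73.1 CPM at E16.0, and the change of -0.01 ± 0.112 did not pass the test (adjusted p = 0.958).

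Cells with UMIs of only 1 of the 3 population genes were compared within libraries, because the populations above overlap. Across stages, Lin28b was higher in Neurod6-only than in Sox2-only cells (log2 difference 1.05 ± 0.171, SE, adjusted p = 9.13e-08), while Hmga2 (-4.49 ± 0.129, adjusted p = 1.63e-44), Igf2bp2 (-0.73 ± 0.0463), Hmga1 (-0.63 ± 0.0485), Igf2bp1 (-0.52 ± 0.0347) and Igf2bp3 (-0.15 ± 0.0285, adjusted p = 1.46e-06) were lower. All 6 tested members thus passed edgeR's quasi-likelihood test with library as a block, where 88.9% of 14064 genes did, 44.4% in each direction, so the count itself is close to the background. At E12.5 Lin28b was between 5.15 and 11.8 CPM in Neurod6-only cells, with a median of 8.63, and between 2.99 and 5.69 CPM in Sox2-only cells, with a median of 4.71. It was higher in Neurod6-only cells of the same library in 8 of 8 libraries at E12.5, E14.5 and E16.0 and in 3 of 8 at E17.5.

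Hmga2 was the member with the widest gap between progenitors and neurons. At E12.5 it was between 193 and 327 CPM in Sox2-only cells (median 273) and between 16.4 and 51.0 CPM in Neurod6-only cells (median 21.1), and it was lower in Neurod6-only cells in 8 of 8 libraries at every stage. Erythroid cells of the same stage had 19.4 CPM of Hmga2, so its level in Neurod6-only cells was close to that in a lineage outside the neural tissue, and own expression and free RNA cannot be told apart there. Lin28b in erythroid cells was at 0.266 CPM (1 UMI) and Igf2bp3 at 8.24 CPM, well below their levels of 8.79 and 68.7 CPM in Neurod6-only cells. Eomes-only cells were below Sox2-only cells in Hmga2 (log2 difference -1.94, adjusted p = 7.54e-17), Igf2bp2 (-0.43, adjusted p = 6.02e-05) and Igf2bp3 (-0.35, adjusted p = 2.06e-08), where 38.5% of genes were lower and the median of all genes was -0.15.

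The change from E12.5 to E17.5 differed between Neurod6-only and Sox2-only cells for all 6 tested members, where 57.1% of genes differed and the median of all genes was 0.12. The change of Igf2bp2 and Igf2bp3 was higher in Neurod6-only than in Sox2-only cells, by log2 differences of 1.18 ± 0.144 (SE, adjusted p = 8.23e-11) and 0.95 ± 0.0854 (adjusted p = 1.05e-15). Mean Igf2bp3 was 103 CPM at E12.5 and 61.2 at E17.5 in Sox2-only cells and 68.7 and 69.9 CPM in Neurod6-only cells, so the 2 populations changed order. Neurod6-only cells had more Igf2bp3 than Sox2-only cells in 0 of 8 libraries at E12.5 and E14.5, in 4 at E16.0 and in 7 at E17.5. Igf2bp1 and Hmga1 also had positive differences (0.36 and 0.91). Hmga2 (-0.96 ± 0.393, adjusted p = 0.0319) and Lin28b (-1.38 ± 0.534, adjusted p = 0.0238) had negative ones. Hmga2 in Neurod6-only cells was near its erythroid level, which itself went from 19.4 to 2.18 CPM. Lin28b had a UMI in 8 WT and 3 het Sox2-only cells at E17.5, so its place among the 6 is no support for that count. Without the library block Hmga2, Igf2bp2 and Igf2bp3 alone passed, where 45.1% of genes did, a share close to that of the members. In Eomes-only cells the change differed from that in Sox2-only cells for 0 of 6 members by edgeR, where 7.51% of genes had a higher and 6.98% a lower value. Of these 6 members 1 had an unadjusted p under 0.05 by edgeR. DESeq2 also called 0, and its share of all genes is not given.

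**Figure D3:**
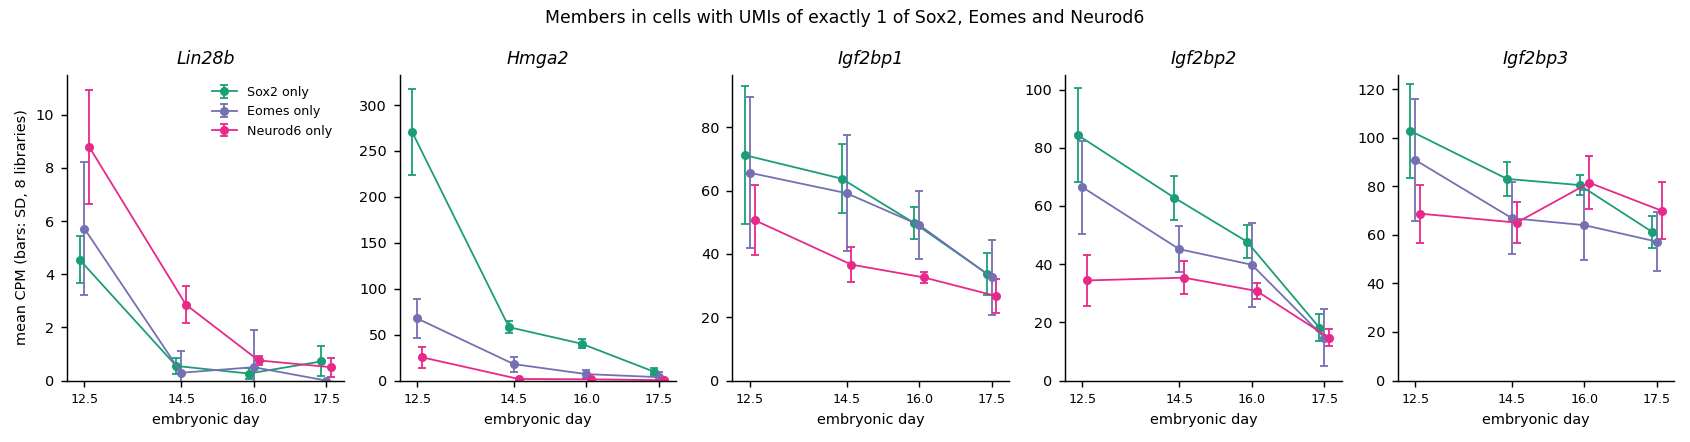
Mean CPM of 5 members against embryonic day in cells with UMIs of only Sox2, only Eomes or only Neurod6, with the SD over 8 libraries (both genotypes) as bars. Lin28b is highest in Neurod6-only cells to E16.0, Hmga2 is highest in Sox2-only cells, and Igf2bp3 in Neurod6-only cells stays between 65.0 and 81.4 CPM while it falls from 103 to 61.2 CPM in Sox2-only cells.

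The study asks what loss of 1 Chd8 copy does, and the members fell in het as in WT libraries. In het Sox2-detected cells the log2 changes from E12.5 to E17.5 were -3.87 for Lin28b, -5.80 for Hmga2, -0.85 for Igf2bp1, -2.50 for Igf2bp2 and -0.82 for Igf2bp3. The same 5 were lower in the het libraries of each population. Of all genes, 30.5%, 28.7% and 32.1% were lower there in Sox2-, Eomes- and Neurod6-detected cells. As above, Lin28b in Sox2- and Eomes-detected cells is no support for this count. Igf2bp1 and Igf2bp3 overlapped between E12.5 and E17.5 in het Sox2-detected cells, with folds of 1.49 and 1.47, against 2.55 and 2.02 in WT. Both also overlapped in het Eomes-detected cells, with folds of 1.69 and 1.47. Igf2bp3 overlapped in het Neurod6-detected cells too, where it averaged 76.3 CPM at E12.5 and 69.8 at E17.5, a fold of 1.09 against 1.57 in WT. The difference of the falls between genotypes passed for 0 of 6 members in any population by edgeR or DESeq2, and for 0% of all genes by edgeR. The share of all genes by DESeq2 is not given. Unadjusted p-values under 0.05 were found for 2, 2 and 3 members in Sox2-, Eomes- and Neurod6-detected cells. The share of all genes under that limit is not given, here or for the other counts by unadjusted p. Such counts are no support on their own. Without het M2 of E12.5 the difference passed for 2, 1 and 2 members, and for 2.63%, 2.05% and 3.81% of all genes.

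At E12.5 the level of Igf2bp1 in Sox2-detected cells was 95.3, 79.3, 91.7 and 94.3 CPM in WT M1, M2, F1 and F2 and 52.4, 83.7, 35.8 and 56.7 CPM in their het partners. Het was lower in 3 of 4 pairs, with ratios of 0.550, 0.390 and 0.601, and the M2 pair, at 1.06, made the genotypes overlap. The log2 difference was -0.58 ± 0.155 (SE) and missed the threshold (adjusted p = 0.0533). It was -0.51 (adjusted p = 0.0744) in Eomes-detected and -0.48 (adjusted p = 0.129) in Neurod6-detected cells.

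Igf2bp3 in het M1, M2, F1 and F2 was at 87.7, 115, 67.2 and 87.2 CPM beside WT at 118, 112, 116 and 111 CPM, a log2 difference of -0.27 ± 0.0866 (SE, adjusted p = 0.0875). Igf2bp2 was at 66.4, 103, 63.1 and 65.8 CPM in het, with pair ratios of 0.729, 1.12, 0.689 and 0.739, and Hmga2 had pair ratios of 0.930, 1.03, 0.679 and 0.790. Both had an adjusted p above the threshold (0.477 and 0.678). So 3 of the 4 het libraries were lower than their partners for each of these genes, and M2 was not.

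The calls at E12.5 depended on the model and on single libraries. An unadjusted p under 0.05 was found for 2 members in each population, a count not set against that of all genes. After adjustment edgeR's quasi-likelihood test called 0 of 6 members in any population. Of all genes it called 1.04%, 0.495% and 0.0137% in Sox2-, Eomes- and Neurod6-detected cells. With the pair as a block it called Igf2bp1 (-0.61, adjusted p = 0.00778) and Igf2bp3 (-0.29, adjusted p = 0.0164) in Sox2-detected cells, Igf2bp1 (adjusted p = 0.0191) and Hmga2 (-0.58, adjusted p = 0.0379) in Eomes-detected cells and Igf2bp1 (adjusted p = 0.0372) in Neurod6-detected cells. The block also raised the calls over all genes, to 15.4%, 6.47% and 5.36%. DESeq2 called 2, 1 and 1 members, where it called 7.11%, 3.79% and 2.71% of all genes. Without het M2 the counts were 2, 3 and 4, where 13.3%, 9.39% and 9.67% of all genes were called.

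Depth moved with the lower het values. The median UMIs per Sox2-detected cell were 6876, 4797 and 6621 in het M1, F1 and F2, 11420 in het M2, and between 9316.5 and 11214 in the WT libraries. With log2 of this median in the fit, the Igf2bp1 difference was -0.22, -0.26 and -0.25 in Sox2-, Eomes- and Neurod6-detected cells, none of which passed. The summed radial glia markers overlapped, 3517 to 4171 CPM in WT and 3584 to 4021 CPM in het libraries. The sample descriptions of the M2 pair start with the code c15 and those of the other 3 pairs with c10, whose meaning is not given.

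**Figure D4:**
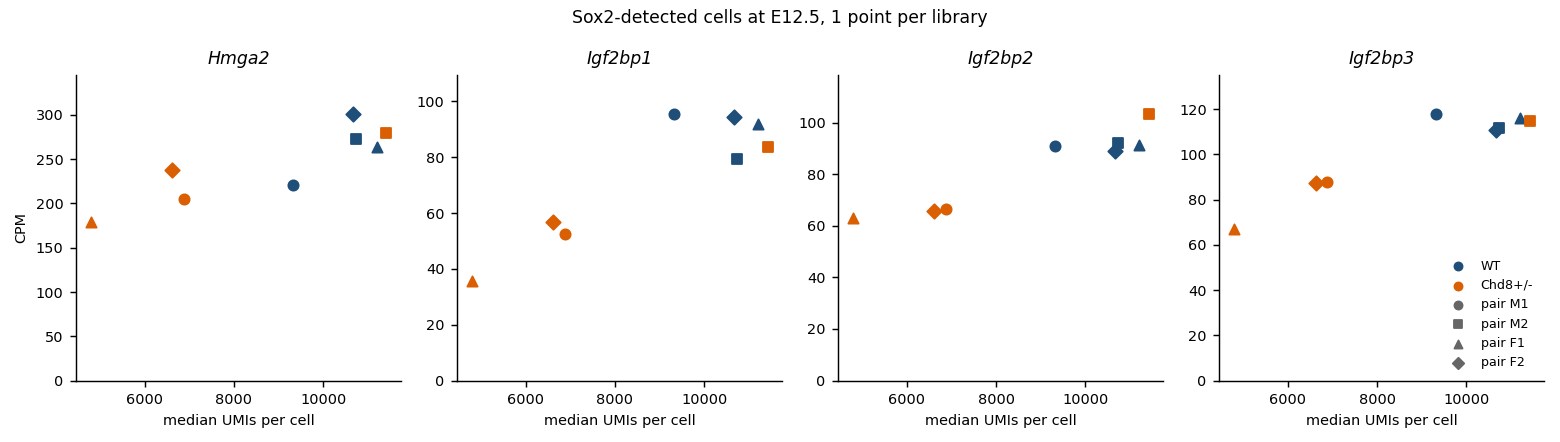
CPM of Hmga2, Igf2bp1, Igf2bp2 and Igf2bp3 in Sox2-detected cells at E12.5 against the median UMIs per cell, 1 point per library, with colour for genotype and marker shape for the pair. The 3 het libraries with medians of 4797 to 6876 have the lowest Igf2bp1, Igf2bp2 and Igf2bp3 levels, and het M2, at 11420, lies among or above the WT libraries for Igf2bp1, Igf2bp2 and Igf2bp3.

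At E14.5, E16.0 and E17.5, and in the average over stages, the test called 0 of 6 members in any population. DESeq2 called 0 as well, and its share of all genes is not given. By edgeR, an unadjusted p under 0.05 was found for Hmga2 in the average over stages in Sox2-detected cells alone. All genes called came to 0% at E14.5 in each population, to 0.0217%, 0.00762% and 0% at E16.0, to 0%, 0.0152% and 0% at E17.5, and to 0.514%, 0.297% and 0.226% in the average, in Sox2-, Eomes- and Neurod6-detected cells. At E14.5 Chd8 itself was thus not called, though its het mean was 89%, 87.4% and 84% of WT in the 3 populations. A count of 0 therefore does not show that the genotypes were alike. At E14.5, Hmga2 in Sox2-detected cells was at 32, 38.6, 44.5 and 40.3 CPM in het beside 33.2, 39.8, 53.0 and 37.6 CPM in WT. At E16.0 it was at 25.4, 26.0, 20.6 and 28.9 CPM in het beside 32.3, 28.4, 27.0 and 32.7 CPM in WT, and at E17.5 it was at 5.48, 4.55, 2.21 and 8.21 CPM in het. The genotypes overlapped at all 3 stages, and het was below its WT partner in 4 of 4 pairs at E16.0 and in 3 of 4 at each other stage.

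Hmga1 had no common course. In WT Sox2-detected cells it was at 37.9, 26.0, 37.8 and 22.9 CPM at E12.5, at 4.79, 10.0, 27.1 and 37.5 CPM at E16.0 and at 20.1, 31.0, 31.9 and 50.8 CPM at E17.5. The log2 change from E12.5 to E17.5 was -0.05 ± 0.456 in Sox2-detected (SE, adjusted p = 0.929), 0.12 ± 0.448 in Eomes-detected and -0.05 ± 0.479 in Neurod6-detected cells, none of which passed, and its sign differed with the population and the settings. In het libraries it was at 4.09, 12.7, 11.5 and 16.7 CPM at E16.0 and at 23.1, 29.0, 9.01 and 56.0 CPM at E17.5. The lowest levels at E17.5 were those of het F1, WT M1 and het M1, the 3 libraries that stood apart there. The sample descriptions of these 3 and of WT F1 start with the code p, whose meaning is not given, and those of the other E17.5 libraries with other codes. At E16.0 both WT males were below both WT females, but het M2 was above het F1. Males and females of that stage also differ in the code that starts their sample descriptions, so that sex and code cannot be told apart. The part of either in the spread was not tested. Within groups the SD of its log2 level was 0.725 in Sox2-detected cells, larger than that of 99.5% of 6249 genes, whose median was 0.177. The other tested members had SDs between 0.153 (Igf2bp3) and 0.315 (Hmga2).

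Reads of Hmga1 can be shared with Hmga1b, a nearly identical gene on chromosome 11 (120762794 to 120764419), named here after its values were seen. Of the 403 windows of 98 bases in the last 500 bases of Hmga1 transcripts, 75.7% occurred in Hmga1b too, whereas no window of the other 6 members occurred in another gene. Hmga1b had 3585 UMIs and Hmga1 20711, and Hmga1b took between 2.80% and 49.7% of their sum in a library. The sum of both still differed 4.75 times between the lowest and the highest WT library at E16.0, where Hmga1 alone differed 7.20 times.

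**Figure D5:**
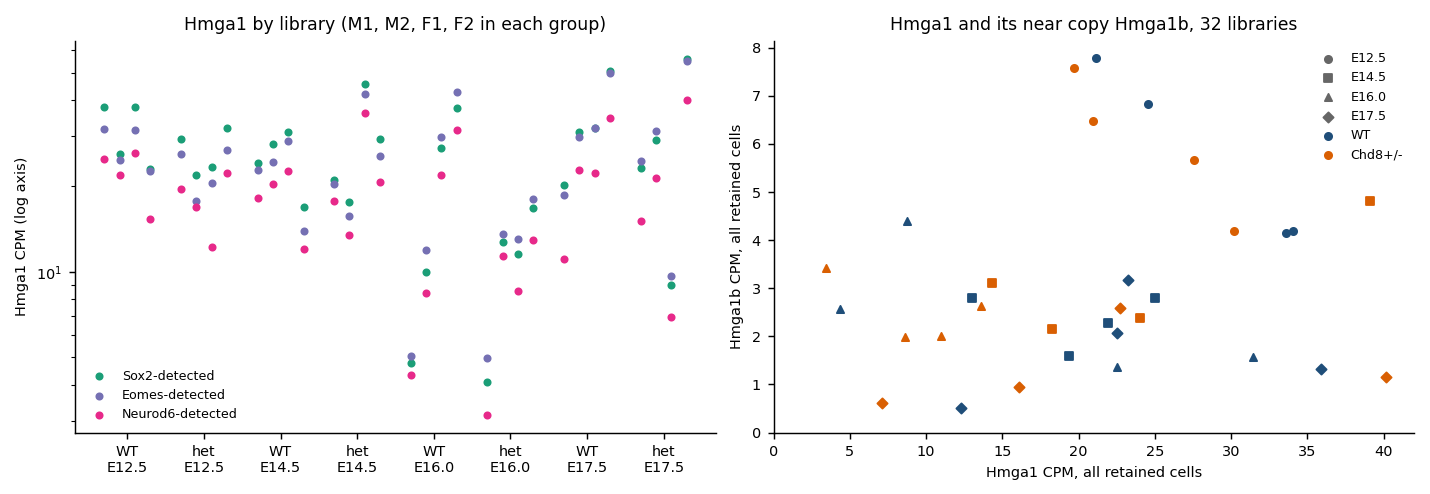
Left, Hmga1 CPM in each library by group and population on a log axis. Right, Hmga1 against Hmga1b CPM over all retained cells of the 32 libraries, by stage and genotype. Libraries of the same group differ severalfold at E16.0 and E17.5, and they do so alike in the 3 populations.

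Lin28a, the paralog that is known for pluripotent and early embryonic cells, was near the limit of detection. Over all retained cells it had 36 UMIs at E12.5, in 7 of 8 libraries, or 0.10 CPM with an exact 95% Poisson interval of 0.0702 to 0.139 that covers counting error only. At E14.5 and E16.0 it had 1 UMI each, and at E17.5 it had 3 UMIs, or 0.0205 CPM (0.00423 to 0.0600). Of the early UMIs 24 lay in Sox2-detected cells. It was below the count minimum in every population and was not tested.

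Across the 32 libraries the members did not all follow each other in Sox2-detected cells. Pearson's r of log2 CPM was 0.912 between Hmga2 and Igf2bp2 and 0.893 between Igf2bp1 and Igf2bp3, and between -0.114 and 0.263 for Hmga1 with any other member. These values are descriptions, since the libraries share stages and differ in depth with them. Of all genes with at least 20 CPM, the highest r was that of Cdca7l with Hmga2 (0.979), Lrrn1 with Lin28b (0.941), Hey1 with Igf2bp2 (0.959), Acvr2b with Igf2bp1 (0.904), Pa2g4 with Igf2bp3 (0.951) and Trmt112 with Hmga1 (0.882).

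Among the other genes of the let-7 pathway, the 2 host transcripts that were measured rose in all 3 populations. Mir99ahg, whose transcript spans let-7c-1 and miR-125b-2, averaged 100 CPM at E12.5 and 507 CPM at E17.5 in WT Sox2-detected cells (log2 change 2.18 ± 0.112, SE), and changed by 3.10 in Eomes-detected and 3.29 in Neurod6-detected cells. Mir100hg, which spans let-7a-2 and miR-125b-1, averaged 66.7 and 244 CPM in Sox2-detected cells, a log2 change of 1.71 ± 0.144. A host transcript is not the mature microRNA. Of 20 genes for small RNA processing and silencing, 6 were higher and 6 lower in Sox2-detected cells, with a median of -0.01, where 32% of all genes were higher, 27.3% were lower and the median was 0.05. Those named were Ago4 (log2 change 1.55), Tnrc6b (1.24), Ago3 (1.10), Ddx6 (0.94) and the uridylyl transferase gene Tut7 (0.60), all higher, and Xpo5, which exports precursor microRNAs from the nucleus (-0.62).

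Of 20 known let-7 targets outside the family tested in Sox2-detected cells 5 were higher and 7 lower, with a median of -0.16, and in Neurod6-detected cells 5 were higher and 10 lower, with a median of -0.25. Of all genes, 32% were higher and 27.3% lower in the former and 31.6% and 28% in the latter, so the Sox2 counts are near the background. Cdc34 (-1.32), Nr2e1 (-1.21) and Plagl2 (-1.14) were lower, whereas the receptor and adaptor genes Insr (1.25) and Irs2 (1.89) and the cell cycle kinase gene Cdk6 (1.66) were higher in Sox2-detected cells. A CTACCTC match was found in the 3′ UTR of 13 of the 21 listed targets.

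In the insulin-like growth factor axis, 3 of 9 genes tested were higher and 2 lower in Sox2-detected cells. H19 averaged 12.4 and 28.5 CPM at E12.5 and E17.5 (log2 change 1.04), and Igfbp3 (1.04) and Igfbp5 (0.56) were higher, while Igfbp2 (-0.99) and Igfbp4 (-0.46) were lower. In Eomes-detected cells 0 of 8 were higher and 3 lower, and in Neurod6-detected cells 1 of 8 was higher and 4 lower. In Neurod6-detected cells H19 (-2.13, adjusted p = 0.000709) and Igfbp5 (-1.26, adjusted p = 0.00327) were lower, opposite in sign to Sox2-detected cells, and the difference between the populations was not tested. Of all genes, 32% were higher and 27.3% lower in Sox2-detected, 25.6% and 24.3% in Eomes-detected, and 31.6% and 28% in Neurod6-detected cells. Among other HMG genes, Hmgb3 (-0.36), Hmgn1 (-0.39) and Hmg20b (-0.39) were lower and Hmgn3 (0.36) was higher in Sox2-detected cells.

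Of 16 late progenitor and glial genes, 14 were higher and 1 lower in Sox2-detected cells, where 32% of all genes were higher and 27.3% lower. Among the higher were Tnc, which averaged 0.104 CPM at E12.5 and 121 CPM at E17.5, and Zbtb20, a transcription factor gene known from astrocyte development, at 51.6 and 647 CPM. Ptprz1, Mfge8, Bcan and Aldh1l1 were higher as well. Of 6 Polycomb genes, Ezh2 (-0.60), Eed (-1.48), Suz12 (-0.45) and Cbx2 (-1.10) were lower and none was higher in Sox2-detected cells, where 27.3% of all genes were lower. In Eomes-detected cells 3 were lower and 1 higher (Jarid2, named after its values were seen), and in Neurod6-detected cells 3 were lower and 0 higher, where 24.3% and 28% of all genes were lower. Suz12 did not pass in either, with log2 changes of -0.07 and -0.12.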

How the data were processed

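Single-cell RNA was measured with 10x 3′ libraries (98-base cDNA reads) in 32 embryos. The authors deposited whole-number UMI counts per gene and barcode for each library. Per the submitters' processing notes, Cell Ranger, STAR 2.7.9a and STARsolo were used with the mm10 build, and the use of strand is not given in the sources used here. The data hold the 7 genes among 32285, and 99.6% of gene IDs matched GENCODE M21.

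Barcodes below 1000 UMIs or 500 genes, or above 10% mitochondrial UMIs, were left out, and 5471 likely doublets, marked by simulated pairs at an assumed rate of 0.8% per 1000 cells, were removed. UMIs were summed per library over cells with at least 1 UMI of Sox2, Eomes or Neurod6. The sums were tested with edgeR 4.0.16 (R 4.3.3; TMM, filterByExpr, quasi-likelihood test, 8 groups in 1 fit), with Benjamini-Hochberg adjustment over all genes tested and a threshold of 0.05. Cells with UMIs of only 1 of these genes were compared with library as a block. DESeq2 1.42.0 was an alternative. The tests were tested on simulated data. Members of a matched pair deviated together (r between 0.179 and 0.891, over 0.1 in 16 of 16 pairs), and the pairing comes from the labels. Shares of cells were taken after thinning to 2000 UMIs. The rule for the other genes named took, for each member, up to 3 genes with at least 20 CPM and the highest correlation of log2 CPM, and, from each list, up to 6 called genes with the largest WT changes in Sox2-detected cells. The members and lists were chosen with earlier results of these data known. Part of the list of other HMG genes is not reported here.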

Additional observations from a re-analysis of the deposited data

Results flagged for a closer look

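In groups of 4 libraries, 7 of 144 combinations of member, group and population had 1 library far from the other 3, by Dixon's 95% critical value for the gap over the range. Chance flags about 1 in 20 groups. Those of Lin28b were all at E17.5 and rest on a few UMIs: het M1 in Sox2-detected cells was at 0.864 CPM (3 UMIs) beside 0.170 to 0.249 CPM in the others, het M1 in Eomes-detected cells was at 0.728 CPM (2 UMIs) beside 0, and WT F1 in Eomes-detected cells was at 0.278 CPM (1 UMI) beside 0. For Hmga2, het F1 was high at E14.5 in Eomes-detected cells (16.9 CPM beside 7.03 to 8.36), het F2 was high at E16.0 in Eomes-detected cells (8.40 beside 5.84 to 6.18) and het F1 was low at E16.0 in Neurod6-detected cells (2.22 beside 4.54 to 4.77). Igf2bp2 in Sox2-detected cells at E12.5 was at 103 CPM in het M2 and at 63.1 to 66.4 CPM in the other 3 het libraries.

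The change from E12.5 to E17.5 differed between Neurod6-only and Sox2-only cells by a test of the difference itself for all 6 tested members, where 57.1% of all genes differed. On the log2 scale the values were Lin28b -1.38, Hmga2 -0.96, Igf2bp1 0.36, Hmga1 0.91, Igf2bp3 0.95 and Igf2bp2 1.18. A positive value means that the change was higher in Neurod6-only cells. Without the library block Hmga2, Igf2bp2 and Igf2bp3 alone passed, and Lin28b rests on few UMIs at E17.5.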

How the results depend on the processing

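The 5 members lower at E17.5 than at E12.5 in WT stayed 5 in all 3 populations in each of 32 fits that left out 1 library. In Neurod6-only cells of both genotypes the mean of Igf2bp3 was not lower at E17.5, as given above. In het Eomes-detected cells the count was 3 in cells with UMIs of only 1 population gene, where 14.2% of all genes were lower. In such cells the step to E14.5 gave 3 members in Eomes-only and 3 in Neurod6-only cells (5 each in the populations that overlap), the step to E16.0 gave 0 and 1 (2 and 2), where 0% and 10.6% of all genes were lower, and the step to E17.5 gave 1 and 1 (4 and 3). The step to E16.0 gave 1 member in Sox2-detected cells (2 in the report) without the count filter, without removal of doublets or with a depth term. In these fits 1.64%, 4.22% and 5.73% of all genes were lower. With the depth term it gave 1 in Eomes- and 1 in Neurod6-detected cells, where 4.65% and 7.11% of all genes were lower. The step to E17.5 in Neurod6-detected cells gave 1 with at least 2 Neurod6 UMIs. The alternatives that left out 3 libraries or added depth were chosen after seeing the data.

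For het against WT at E12.5, the replicate block by matched pair gave 2, 2 and 1 members in Sox2-, Eomes- and Neurod6-detected cells (0 in the report), DESeq2 gave 2, 1 and 1, RLE size factors gave 1 and exclusive cells 1 in Sox2-detected cells (1.85% and 1.03% of all genes), and leaving out the 3 libraries apart at E17.5 gave 2 and 1 in Sox2- and Eomes-detected cells (4.31% and 2.3% of all genes). The block changed no other count of members. Stage contrasts cannot be fitted inside pairs.

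Leaving out 1 library at a time gave, in Sox2-, Eomes- and Neurod6-detected cells, 0 to 2, 0 to 2 and 1 to 3 members for the step to E16.0. The count of 0 came without WT M2 of E14.5 (2.16% of all genes lower in Sox2-, 1.21% in Eomes-detected cells) or of E16.0 (2.03% in Sox2-detected cells). The step to E17.5 gave 3 to 4, 3 to 4 and 2 to 3. For het against WT at E12.5 the counts were 0 to 2, 0 to 3 and 0 to 4. The highest each came without het M2, where 13.3%, 9.39% and 9.67% of all genes were called. In Sox2-detected cells 1 was called without WT F1 of E14.5, WT M1 of E17.5 or het M2 of E17.5 (1.86%, 1.73% and 1.27% of all genes). The difference of the changes between het and WT gave 0 to 2, 0 to 1 and 0 to 2. Its highest counts came without het M2 of E12.5 (2.63%, 2.05% and 3.81% of all genes). The difference of the changes between Neurod6-only and Sox2-only cells gave 3 members without the library block and 5 to 6 without 1 library. The same difference for Eomes-only against Sox2-only cells gave 0 without 1 library. The level averaged over stages in Eomes-only against Sox2-only cells gave 3 to 4 (3 in the report, where 38.5% of all genes were lower). The share of all genes in these refits is not given. In these comparisons only the 16 libraries of E12.5 and E17.5 were left out in turn, with the trend of the full fit kept.

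These log2 values changed sign. Hmga1 from E12.5 to E17.5 was 0.075 (at least 2 UMIs) and 0.10 (without 3 libraries of E17.5) in Sox2-detected cells, -0.21 (depth term) in Eomes-detected cells, and 0.15 (at least 2 UMIs), 0.39 (exclusive) and 0.19 (without 3 libraries of E17.5) in Neurod6-detected cells, with 1 library left out between -0.33 and 0.13, -0.17 and 0.32, and -0.31 and 0.19. Lin28b from E16.0 to E17.5 was -0.19 in Sox2-detected cells without cells of other types, and Hmga2 was 0.36 in Eomes-only cells. Igf2bp3 from E14.5 to E16.0 in Neurod6-detected cells was 0.044 (at least 2 UMIs), 0.12 (exclusive), 0.0024 (no other types) and 0.18 (depth term), and between -0.062 and 0.032 with 1 library left out. For het against WT at E12.5 without the 3 shallower het libraries, which leaves het M2 alone, assumed to vary like the other groups, Hmga2 was 0.036, 0.38 and 0.67, Igf2bp2 was 0.14, 0.073 and 0.25 in the 3 populations, and Igf2bp3 was 0.0039 in Eomes- and 0.062 in Neurod6-detected cells. With the depth term Igf2bp2 was 0.0056 in Sox2- and Hmga2 0.030 in Eomes-detected cells, and Hmga2 in Neurod6-detected cells was 0.0083 with at least 2 UMIs and 0.41 in exclusive cells. The cause of these changes was not tested. Lin28b counts at E17.5 and Lin28a counts at every stage limit what can be said of them.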

Other observations

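Cells with markers of types outside the excitatory lineage also held the members, pooled here over libraries by stage, with no replicate test. In Cajal-Retzius cells, early-born neurons at the cortical surface, Lin28b was at 10.4, 12.5, 4.53 and 10.2 CPM at E12.5, E14.5, E16.0 and, last, E17.5, from 32, 25, 3 and 18 UMIs in 381, 192, 79 and 204 cells. In interneurons Lin28b was at 12 CPM at E12.5 and 1.27 at E17.5, and Hmga2 at 97.0 and 1.15 CPM. Igf2bp3 in interneurons was at 117, 81.2, 101 and 86.4 CPM over the 4 stages.

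In cells that are not neural, Hmga2 was at 78.9 CPM at E12.5 and 2.11 at E17.5 in endothelial cells, and at 102 and 2.96 CPM in pericytes and fibroblasts, with 5 UMIs in each at E17.5. Erythroid cells had 19.4 and 2.18 CPM, so the late values are close to that level and cannot be told apart from free RNA. In oligodendrocyte lineage cells it was at 43.9, 27.1 and 19.4 CPM at E14.5, E16.0 and E17.5, from 7, 17 and 42 UMIs in 9, 63 and 220 cells.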
